A study of Mus musculus with 15 samples.

Results

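Acinar cells of the mouse submandibular gland secrete saliva proteins, and 7 genes listed for that cell were followed. Bhlha15 and Spdef encode transcription factors, and Pip, Lpo, Smgc, Muc10 and Car6 encode secreted products. The 7 genes were looked up by symbol in the deposited table of 21013 genes. Of the 7, 6 stood under the listed symbol. Muc10 has no row of its own, and the row Prol1 was used because RefSeq gives Muc10 as a synonym of Prol1. All 7 passed the filter on low counts.

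Bulk RNA was sequenced from whole submandibular glands of wild-type male C57BL/6 mice aged 8 to 10 weeks, as 15 libraries in 5 groups of 3. IR_iEV_30d glands received 15 Gy at the gland region and iEVs weekly into the gland from day 1, and were collected on day 30. IR_30d glands received the same dose without iEVs and were collected on day 30. IR_iEV_4d and IR_4d are the matching groups collected on day 4, and NT glands had no treatment. The term iEV is left undefined in the labels; the title of the series refers to vesicles of mesenchymal stem cells. No vehicle injection and no iEV treatment of unirradiated glands is among the groups, so the injection and the iEVs cannot be told apart. The labels give neither the day on which NT glands were taken nor whether each sample is a separate mouse, so the p-values reflect sample-to-sample spread that may be technical in part. Library totals ran from 29082798 to 52201098 counts.

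MIST1, the protein of Bhlha15, is a basic helix-loop-helix factor of serous secretory cells that binds E-box DNA and scales up the secretory machinery of a cell already committed to its fate. SPDEF is an ETS factor known for the maturation of mucous and goblet cells. The secreted products reach saliva through regulated granules: Prol1 (Muc10) is the main mucin of the mouse submandibular gland, Car6 a secreted carbonic anhydrase that buffers saliva, Lpo the antimicrobial lactoperoxidase, Pip the prolactin-inducible protein, and Smgc the submandibular gland protein C, best known from the neonatal gland.

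The region around the start of 4 of the genes is shown because MIST1 acts through E-boxes and these genes hold the clearest values that follow. Each line runs 5′ to 3′ from 250 bases before to 50 after the RefSeq start, in build GRCm38.p6, which differs from the build named for the counts. Capitals mark matches to the E-box words named next. Other E-box words were not searched and stay in lower case. The word CATATG was searched as the E-box most often tied to MIST1. Also searched were the word CAGCTG and the word CATCTG with its reverse complement, written CAGATG. The first pair read the same on both strands, so both strands are covered, and no word overlaps another in these windows. The windows are chr5:144190036-144190335 (plus strand) for Bhlha15, chr17:27728902-27729201 (minus) for Spdef, chr4:150201086-150201385 (minus) for Car6 and chr6:41847299-41847598 (plus) for Pip.
Bhlha15: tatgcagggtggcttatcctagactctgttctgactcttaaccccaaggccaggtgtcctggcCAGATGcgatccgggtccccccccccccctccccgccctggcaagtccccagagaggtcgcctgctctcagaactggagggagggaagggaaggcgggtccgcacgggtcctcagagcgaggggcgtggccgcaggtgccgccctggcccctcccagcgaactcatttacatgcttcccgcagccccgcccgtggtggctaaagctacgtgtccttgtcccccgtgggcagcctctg
Spdef: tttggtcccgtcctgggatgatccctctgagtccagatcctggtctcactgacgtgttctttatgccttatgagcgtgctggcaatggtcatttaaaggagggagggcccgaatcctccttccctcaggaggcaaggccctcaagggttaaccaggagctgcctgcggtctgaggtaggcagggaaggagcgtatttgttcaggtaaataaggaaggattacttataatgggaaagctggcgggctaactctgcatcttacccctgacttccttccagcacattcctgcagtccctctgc
Car6: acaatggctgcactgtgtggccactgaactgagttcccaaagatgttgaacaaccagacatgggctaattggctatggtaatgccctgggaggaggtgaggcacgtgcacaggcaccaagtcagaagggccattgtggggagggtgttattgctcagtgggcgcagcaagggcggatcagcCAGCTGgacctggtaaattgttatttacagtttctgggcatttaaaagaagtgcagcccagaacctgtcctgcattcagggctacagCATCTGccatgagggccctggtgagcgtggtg
Pip: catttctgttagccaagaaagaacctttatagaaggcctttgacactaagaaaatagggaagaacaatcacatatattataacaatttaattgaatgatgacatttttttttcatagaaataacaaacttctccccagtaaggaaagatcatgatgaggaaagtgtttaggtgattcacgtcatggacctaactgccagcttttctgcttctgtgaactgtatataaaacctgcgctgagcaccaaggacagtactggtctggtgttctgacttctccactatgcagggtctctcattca
Of the 7 genes, 2 held a match: Car6 with CAGCTG at -69 and CATCTG at 18 from the start, and Bhlha15 with CAGATG at -187. Among 19584 windows of 15407 genes in the table, 29.7% held at least 1 of these words, 16.4% the word CAGCTG, 14.0% the third word on either strand and 2.43% the word CATATG. A match is a run of letters and not a measured site. Spdef, Pip, Prol1, Lpo and Smgc held none of these words in this window.

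The 7 genes span a very wide range of levels. On the scale of CPM (a count scaled to the effective size of its library) per kilobase of exon, the median over the 15 libraries was 48794 for Prol1, 13085 for Car6, 3078 for Pip, 236 for Lpo, 121 for Bhlha15, 14.1 for Spdef and 0.0553 for Smgc. Exon lengths come from an annotation of the preceding mouse build and merge all transcripts of a gene, which lowers the value of genes with many. Prol1 alone took 4.88 to 7.01% of all counts of a library, and Prol1, Car6, Pip, Lpo and Smgc together took 7.46 to 11.2%. Over the 15 libraries the SD of log2 CPM was 0.18 for Prol1, 0.19 for Lpo, 0.23 for Car6, 0.30 for Bhlha15, 0.37 for Pip, 0.39 for Spdef and 3.84 for Smgc. Prol1, Lpo and Car6 were thus the steadiest of the set and Smgc the most variable.

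**Figure D1:**
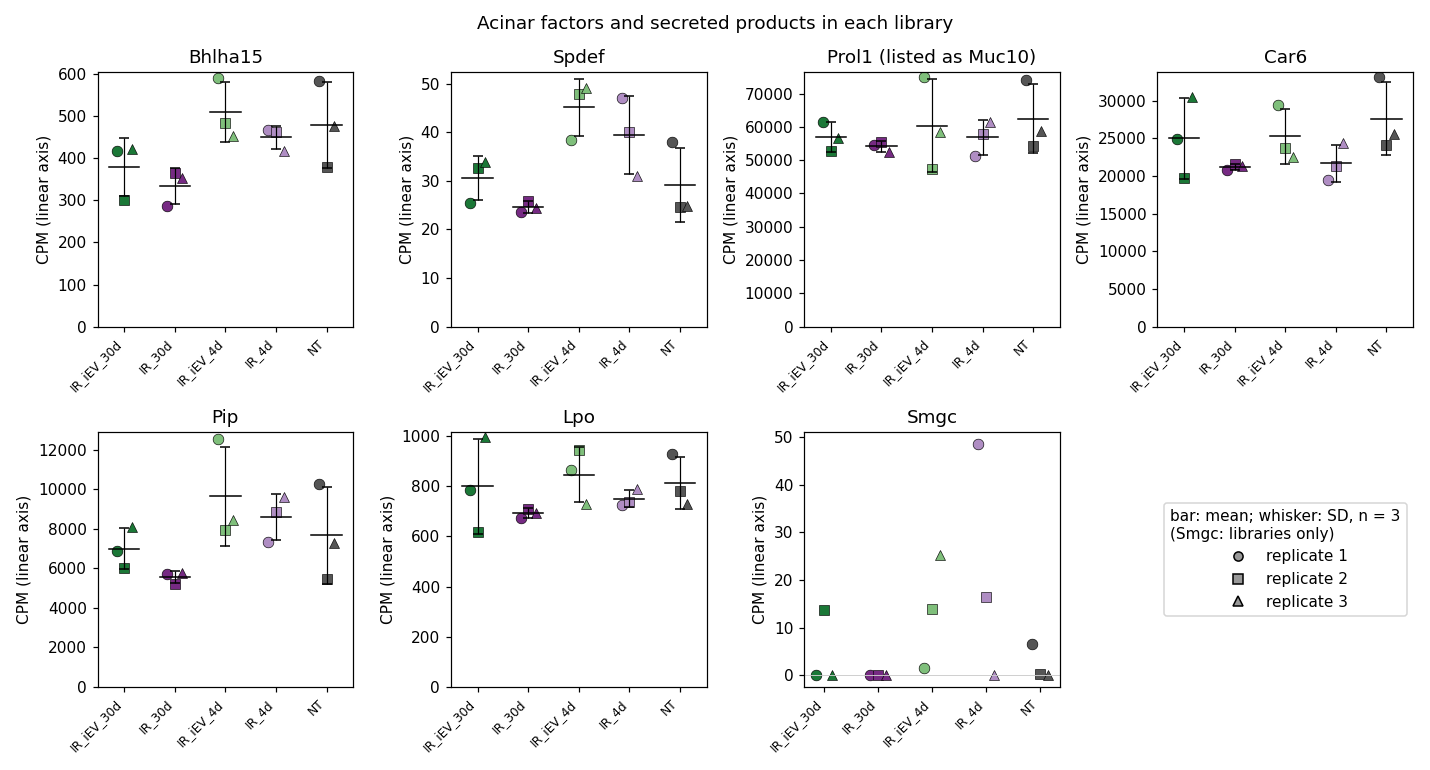
Level of each gene in CPM in the 15 libraries, 1 panel per gene, with a point per library and, except for Smgc, a bar for the group mean and a whisker for the SD (n = 3). The IR_30d points of Bhlha15, Lpo and Car6 all lie under the NT points, and Smgc is near 0 in 9 of the 15 libraries.

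Libraries differed in markers of neighbouring glands. The sublingual products Dcpp1, Dcpp2 and Dcpp3 averaged at least 7.73 log2 CPM in 6 libraries (IR_iEV_30d replicate 2, IR_iEV_4d replicates 2 and 3, IR_4d replicates 1 and 2, NT replicate 1) and at most 3.20 in the other 9. The largest gap between libraries set this split. A fit without these 6 libraries keeps 1 library in IR_iEV_4d and 1 in IR_4d, each assumed to vary like the other groups. The 4 sublingual markers together reached 2.39 to 3883 CPM in IR_iEV_30d, 2.21 to 38.4 in IR_30d, 42.5 to 4632 in IR_iEV_4d, 30.1 to 8207 in IR_4d and 0.943 to 907 in NT libraries. The 5 parotid markers summed to 19.7 to 1820.1 CPM in IR_iEV_30d, 34.9 to 425 in IR_30d, 1524 to 6260.3 in IR_iEV_4d, 219 to 6770 in IR_4d and 18.4 to 85.1 in NT libraries, so that every IR_iEV_4d and IR_4d library lay above the NT libraries. The 5 serous acinar markers, among them the water channel Aqp5, were present throughout, at a summed 1826 to 2314 CPM in IR_iEV_30d, 1694 to 1941 in IR_30d, 1856 to 2253 in IR_iEV_4d, 2090.3 to 2124 in IR_4d and 1964 to 2489 in NT libraries. The IR_30d libraries lay wholly under the NT libraries. In bulk glands, fewer acinar cells and less RNA per acinar cell cannot be told apart.

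In IR_30d against NT glands the question was what irradiation left in the gland a month later. All 7 genes had a lower estimate in IR_30d glands, by a median of -0.38 on the log2 scale against -0.0038 over all 16042 genes tested, but none passed the test at an adjusted p of 0.05 (edgeR quasi-likelihood test, Benjamini-Hochberg over all genes). Among fits that left out 1 library, each of the 7 changes was smallest without NT replicate 1, a library high in sublingual products. Without it the changes were -0.36 for Bhlha15, -0.23 for Car6, -0.19 for Pip, -0.13 for Lpo, -0.063 for Prol1 and -0.011 for Spdef. Of all genes 4.48% were called in this comparison, and 1.29% fell. At an unadjusted p under 0.05 stood 3 of the 7 genes, Bhlha15, Car6 and Pip, against 16.3% of all genes, and DESeq2 called 1 of the 7, Bhlha15, while limma-voom called 0.

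Bhlha15 stood at 286, 366 and 353 CPM in IR_30d glands, against 584, 379.7 and 477 CPM in NT glands. The groups did not overlap, although the highest IR_30d library lay close under the lowest NT library. The log2 change was -0.52 ± 0.16 (SE, 95% interval -0.86 to -0.18), with an edgeR adjusted p of 0.0826 and a DESeq2 adjusted p of 0.0206. Over all alternatives that kept the libraries or dropped the 6 sublingual-high ones, the adjusted p ran from 0.0206 to 0.210, with -0.38 and 0.137 without those 6. Leaving out 1 library at a time gave -0.66 to -0.36 and an edgeR adjusted p of 0.0299 to 0.300. Only the fit without NT replicate 2 was past the threshold. Markers of plasma cells, which also use MIST1, summed to 1.27 to 15.3 CPM in IR_30d and 1.23 to 15.8 CPM in NT libraries. Of the 5 plasma cell markers 3 were tested and 0 were called in edgeR, and their part in the Bhlha15 value was not tested.

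Car6 stood at 20823, 21590.1 and 21274 CPM in IR_30d glands, against 33132, 24079 and 25570 CPM in NT glands. The IR_30d libraries were tightly grouped under every NT library, and NT replicate 1 was the highest of all 15. The log2 change was -0.38 ± 0.15 (95% interval -0.70 to -0.05, edgeR adjusted p 0.212). Lpo also did not overlap, at 673, 712 and 693 CPM in IR_30d against 930.1, 783 and 731 CPM in NT glands, with a change of -0.23 ± 0.14 (edgeR adjusted p 0.465). Groups that do not overlap with the first lower are found for 10.7% of all genes in this comparison.

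Pip had 5719, 5226 and 5768 CPM in IR_30d glands, against 10269, 5444 and 7265 CPM in NT glands, a range that NT replicate 1 stretches. Its change was -0.46 ± 0.21 (95% interval -0.91 to -0.01, edgeR adjusted p 0.299). The mucin Prol1 had the smallest difference, with 54142 ± 1579 CPM in IR_30d and 62393 ± 10379 CPM in NT glands (SD, n = 3 each), a change of -0.20 ± 0.14 (edgeR adjusted p 0.563). Spdef stood at 24.6 ± 1.18 CPM in IR_30d and 29.1 ± 7.60 CPM in NT glands, a change of -0.24 ± 0.18 (edgeR adjusted p 0.588). Another gland compartment moved at the same time: of 6 granular convoluted tubule markers (Egf, Ren1 and 4 kallikreins), 5 rose in IR_30d against NT glands, and the summed level of the 6 was 133834 to 143587 CPM in IR_30d and 51772 to 78122 CPM in NT libraries. Of 4 macrophage markers 3 rose, Adgre1, Cd68 and C1qa, with sums of 106 to 133 CPM in IR_30d and 77.8 to 82.2 CPM in NT libraries. Of 5 duct markers Krt19 rose and Cftr fell, with sums of 464 to 489.7 CPM in IR_30d and 439.8 to 588 CPM in NT libraries. The part of these lists in the lower acinar values was not tested. Among the 5 serous acinar markers Aqp5 fell, by 0.45 (edgeR adjusted p 0.0121, and 0.0675 without IR_30d replicate 1), and the other 4 were not called.

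Genes known to depend on MIST1 in mouse pancreas or stomach were read beside Bhlha15. Of 5 tested, 1 fell in IR_30d against NT glands and 0 rose, and the median change was -0.28. That gene was Gjb1, the gap junction protein connexin 32, at 45.6, 54.1 and 52.3 CPM in IR_30d against 88.8, 64.3 and 64.3 CPM in NT glands. Its change was -0.52 ± 0.13 (edgeR adjusted p 0.0256), but the adjusted p was 0.120 without NT replicate 1 and 0.111, 0.0572 and 0.0769 when IR_30d replicates 1, 2 and 3 were left out in turn. Without the 6 sublingual-high libraries it was 0.0605. Rab3d, a GTPase of secretory granules, had -0.27 ± 0.09 (edgeR adjusted p 0.117).

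Of 10 other acinar transcription factors tested, 1 fell and 0 rose in the same comparison. Creb3l1, a membrane-bound factor that drives secretory pathway genes and is also listed as SPDEF-regulated, had 163 ± 14.0 CPM in IR_30d and 227 ± 20.6 CPM in NT glands (SD, n = 3 each), a change of -0.48 ± 0.12 (edgeR adjusted p 0.0316). Its call was lost in 5 of 6 fits that left out 1 library of these groups, with adjusted p up to 0.161, and was kept without NT replicate 2. Xbp1, the master factor of the secretory unfolded protein response, had -0.25 ± 0.11 (edgeR adjusted p 0.242). Of 17 secreted products tested, Prol1 included, 1 fell: Scgb2b26, an androgen-binding protein subunit, at 3501, 2908 and 3221 CPM in IR_30d against 9797, 5353 and 5713 CPM in NT glands, a change of -1.12 ± 0.24 (edgeR adjusted p 0.0195). Without NT replicate 1 it was -0.79 with an adjusted p of 0.0744, without IR_30d replicate 2 or 3 the adjusted p was 0.0909 or 0.0745, and its near-identical paralogs make the split of reads uncertain. Of 10 granule exocytosis genes tested, 0 were called in edgeR.

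In IR_iEV_30d against IR_30d glands, which asks whether iEVs altered the late irradiated gland, all 7 genes had a higher estimate. The median change was 0.24 on the log2 scale, against -0.0096 over all genes tested. Smgc had 0, 426 and 0 counts in IR_iEV_30d and 0, 5 and 3 in IR_30d libraries, so its sign rests on IR_iEV_30d replicate 2. None of the 7 genes passed the test (edgeR). Neither DESeq2 nor limma-voom called any. In edgeR 0 of the 7 had an unadjusted p under 0.05, against 12.9% of all genes, and in DESeq2 1 of the 7 did. Of all genes, 0.798% were called. Without Smgc the changes ran from 0.07 for Prol1 to 0.33 for Pip, with edgeR adjusted p from 0.489 to 0.872. This comparison shares the IR_30d libraries with IR_30d against NT, so opposite signs in the 2 are not separate evidence.

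Pip had 6855, 6033 and 8078 CPM in IR_iEV_30d glands, against 5719, 5226 and 5768 CPM in IR_30d glands. It was the gene of the set whose groups did not overlap here, which 8.68% of all genes did with the first higher. The change was 0.33 ± 0.21 (95% interval -0.13 to 0.78, edgeR adjusted p 0.551). Bhlha15 had 418, 301 and 422 CPM in IR_iEV_30d glands, against 286, 366 and 353 CPM in IR_30d glands, and the change was 0.18 ± 0.16 (95% interval -0.15 to 0.52, edgeR adjusted p 0.671). IR_iEV_30d replicate 2, the library of that group high in sublingual products, was the lowest of its group for Bhlha15, Pip, Car6, Lpo and Prol1.

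Car6 had 24910, 19692 and 30481 CPM in IR_iEV_30d glands, against 20823, 21590.1 and 21274 CPM in IR_30d glands, and the groups overlapped. The change was 0.24 ± 0.15 (95% interval -0.09 to 0.56, edgeR adjusted p 0.545). Without the 6 libraries high in sublingual products it was 0.40, in a fit that keeps 1 library in IR_iEV_4d and 1 in IR_4d. Leaving out only IR_iEV_30d replicate 2, the library of these groups high in sublingual products, gave 0.39. Fits with 1 library left out had edgeR adjusted p of 0.254 or more, and the alternatives that kept all libraries gave 0.476 to 0.663. Lpo had 787, 616 and 997 CPM in IR_iEV_30d and 673, 712 and 693 CPM in IR_30d glands, a change of 0.21 ± 0.14 (edgeR adjusted p 0.571). Spdef had 25.5, 32.5 and 33.9 CPM in IR_iEV_30d and 23.5, 25.8 and 24.4 CPM in IR_30d glands, a change of 0.32 ± 0.18 (edgeR adjusted p 0.489). Over the 6 genes other than Smgc, the lowest end of an interval was -0.23 (Prol1) and the highest 0.78 (Pip). Every interval included no change, and rises or falls within the interval of a gene cannot be set aside for that gene.

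Of the 5 MIST1-regulated genes, 0 were called between IR_iEV_30d and IR_30d glands, with a median of 0.44, and likewise 0 of 10 acinar factors, 0 of 17 secreted products (Prol1 included) and 0 of 10 exocytosis genes (edgeR). Gjb1 had 0.44 ± 0.13 (edgeR adjusted p 0.135). Among the serous acinar markers 1 of 5 rose, the water channel Aqp5, by 0.45 (edgeR adjusted p 0.0411), a call lost without any single library other than IR_iEV_30d replicate 2 (adjusted p up to 0.205). The Aqp5 call was also lost in a separate edgeR fit (adjusted p 0.0817), under the replicate block (0.0612) and with sublingual and adipose levels as covariates (0.122). In the same comparison 4 of the 6 granular convoluted tubule markers fell, where 0.798% of all genes were called in either direction. The tubule markers' part in the acinar values was not tested.

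Compared with NT glands, IR_iEV_30d glands showed no called change in any of the 7 genes, DESeq2 and limma-voom included. In edgeR 0 of 7 had an unadjusted p under 0.05, and in DESeq2 1 of 7 (Bhlha15, 0.0346). Of all genes 1.1% were called in edgeR and 12.9% had an unadjusted edgeR p under 0.05. Bhlha15 averaged 380.4 ± 69.0 CPM in IR_iEV_30d and 480.2 ± 102 CPM in NT glands (SD, n = 3 each), a change of -0.34 ± 0.16 (95% interval -0.68 to 0.00, edgeR adjusted p 0.391). The other 6 genes had edgeR adjusted p from 0.722 to 0.958.

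**Figure D2:**
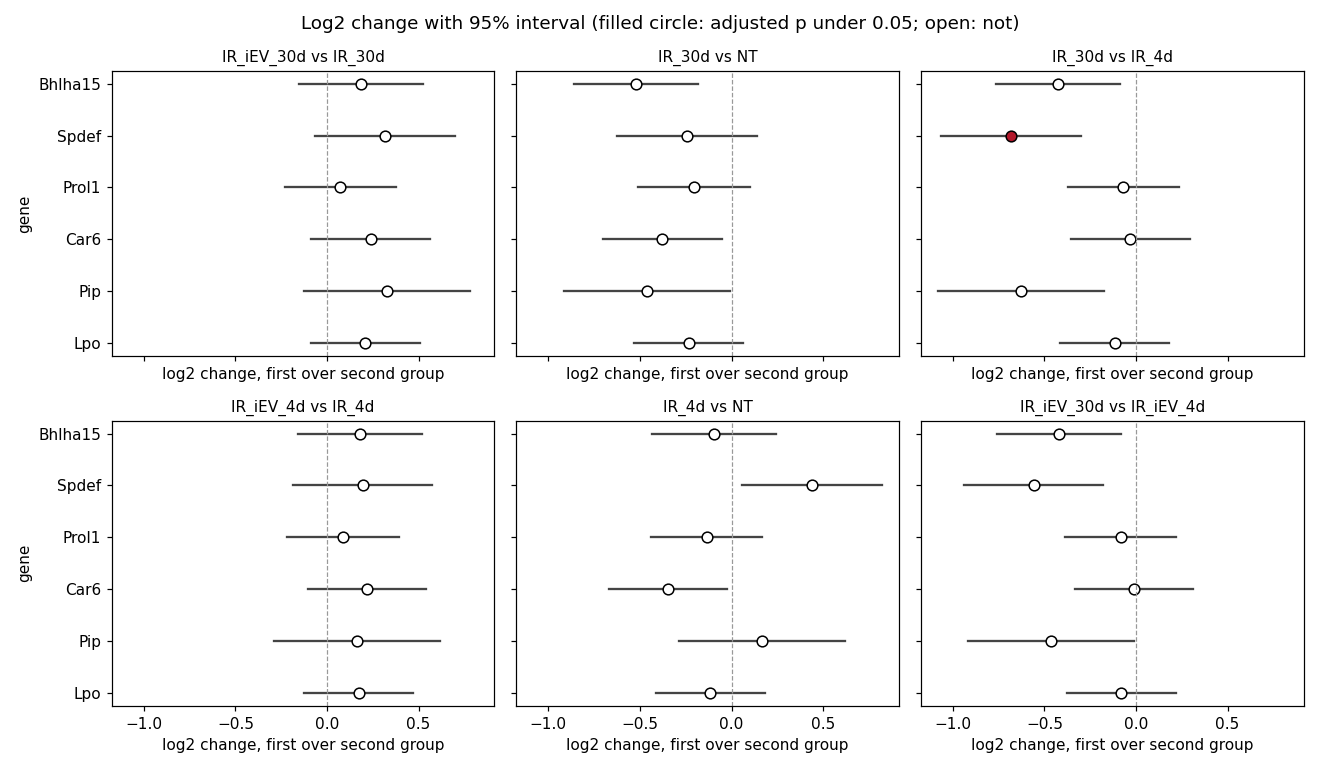
Log2 change of 6 genes (Smgc left out) in 6 comparisons, first group over second, with 95% intervals and a dashed line at no change. Only the point of Spdef in IR_30d against IR_4d glands, at -0.68, is filled as past an adjusted p of 0.05.

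On day 4 after irradiation none of the secreted products among the 7 genes passed the test. In IR_4d against NT glands 0 of the 7 genes were called by edgeR, DESeq2 or limma-voom, 2 of the 7 (Spdef and Car6) had an unadjusted edgeR p under 0.05, against 11.6% of all genes, and 1.4% of all genes were called. Car6 had 19439, 21279 and 24351 CPM in IR_4d glands, against 33132, 24079 and 25570 CPM in NT glands, and the change was -0.35 ± 0.15 (95% interval -0.67 to -0.02, edgeR adjusted p 0.381). Prol1, Lpo and Bhlha15 had -0.14, -0.12 and -0.10, and Pip 0.17, each with an SE of 0.14 to 0.21. Lyz1, a lysozyme, fell by 1.83 among the other secreted products, at low means of 0.525 CPM in IR_4d and 1.89 CPM in NT glands. Its edgeR adjusted p was 0.0122, and 0.0765 and 0.0793 without IR_4d replicates 2 and 3. In limma-voom the adjusted p was 0.0793. Without the 6 sublingual-high libraries, where IR_4d keeps 1 library, the change was -2.28 and the call was lost.

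Spdef had 47.1, 40.1 and 31.0 CPM in IR_4d glands, against 37.9, 24.6 and 24.8 CPM in NT glands. The change was 0.44 ± 0.18 (95% interval 0.06 to 0.82, edgeR adjusted p 0.337), and 0.67 with an edgeR adjusted p of 0.0371 without NT replicate 1, which is high in sublingual products. Without all 6 such libraries it was 0.31 (adjusted p 0.618), and with sublingual and adipose levels as covariates 0.21 (0.833). In IR_iEV_4d glands Spdef had 38.4, 47.9 and 49.0 CPM, all above the NT libraries, with a change from NT of 0.63 ± 0.18 (95% interval 0.25 to 1.01, edgeR adjusted p 0.0787). DESeq2 gave an adjusted p of 0.0129, and edgeR 0.00524 without NT replicate 1. The adjusted p was 0.0870 without the 6 sublingual-high libraries (0.60), 0.477 with the covariates (0.47), 0.124 under the replicate block, 0.167 in a separate fit and up to 0.285 with 1 library left out. Of all genes 2.31% were called in IR_iEV_4d against NT glands, 9.72% had the first group wholly higher and 16.6% had an unadjusted p under 0.05, as 1 of the 7 did. The other 6 genes were not called. A Pip value of 0.95 (edgeR adjusted p 0.0101) without the 6 sublingual-high libraries rests on 1 IR_iEV_4d library, replicate 1, the highest for Pip of all 15.

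In IR_iEV_4d against IR_4d glands 0 of the 7 genes were called by edgeR, DESeq2 or limma-voom, and 0 had an unadjusted p under 0.05, against 6.81% of all genes. The whole table held 5 called genes in edgeR, or 0.0312%. Without Smgc the changes ran from 0.09 for Prol1 to 0.22 for Car6, with edgeR adjusted p from 0.828 to 0.926. Pip had 12523, 7916 and 8456 CPM in IR_iEV_4d glands, against 7351, 8826 and 9622 CPM in IR_4d glands, and 1 library of IR_iEV_4d, replicate 1, was far above the rest. The difference between the iEV changes of day 30 and day 4 was not called for any of the 7 genes (edgeR, DESeq2 and limma-voom), with -0.01 to 0.16 on the log2 scale apart from Smgc. None had an unadjusted p under 0.05, against 9.05% of all genes, and 0.125% of all genes were called in edgeR.

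Across time, IR_30d against IR_4d glands held the 1 call among the 63 tests of the 7 genes in 9 comparisons. With 1 NT group of unstated day, time after irradiation cannot be told apart from age or other differences between the collection days. In the iEV groups, and in the difference of iEV changes, the number of weekly injections also differs between the days. Spdef fell to 23.5, 25.8 and 24.4 CPM in IR_30d glands, against 47.1, 40.1 and 31.0 CPM in IR_4d glands. The groups did not overlap, and the IR_30d libraries lay within a narrow band. The change was -0.68 ± 0.18 (95% interval -1.07 to -0.30, edgeR adjusted p 0.0328), in a comparison where 6.81% of all genes were called and 1.99% fell. At an unadjusted p under 0.05 stood 4 of the 7 genes and 19.8% of all genes. Leaving out 1 library gave -0.83 to -0.53 and edgeR adjusted p from 0.0161 to 0.15, with the call kept only without IR_4d replicate 3.

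Spdef was higher where sublingual products were high, with ranges that overlapped. It was 32.5 to 49.0 CPM (median 43.6) in the 6 libraries high in them and 23.5 to 38.4 CPM (median 25.5) in the 9 others. IR_30d held none of the high libraries and IR_4d held 2. Of the 4 sublingual markers 0 were called between these groups in edgeR, although their median log2 change was -9.47. Their sums varied widely within IR_4d, at 30.1 to 8207 CPM, against 2.21 to 38.4 CPM in IR_30d libraries. Without the 6 libraries the change between IR_30d and IR_4d glands was -0.34 (edgeR adjusted p 0.380), with 1 library left in IR_4d that is assumed to vary like the rest, and with sublingual and adipose levels as covariates it was -0.36 (adjusted p 0.20). Adipose markers summed to 7.19 to 14.1 CPM in IR_30d and 4.56 to 57.6 CPM in IR_4d libraries. All 4 macrophage markers rose in IR_30d against IR_4d glands, with sums of 106 to 133 CPM in IR_30d and 61.5 to 67.1 CPM in IR_4d libraries. Of the 6 granular convoluted tubule markers 5 rose, with sums of 133834 to 143587 CPM in IR_30d and 56567 to 70041 CPM in IR_4d libraries. Their part in the falls between these groups was not tested.

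**Figure D3:**
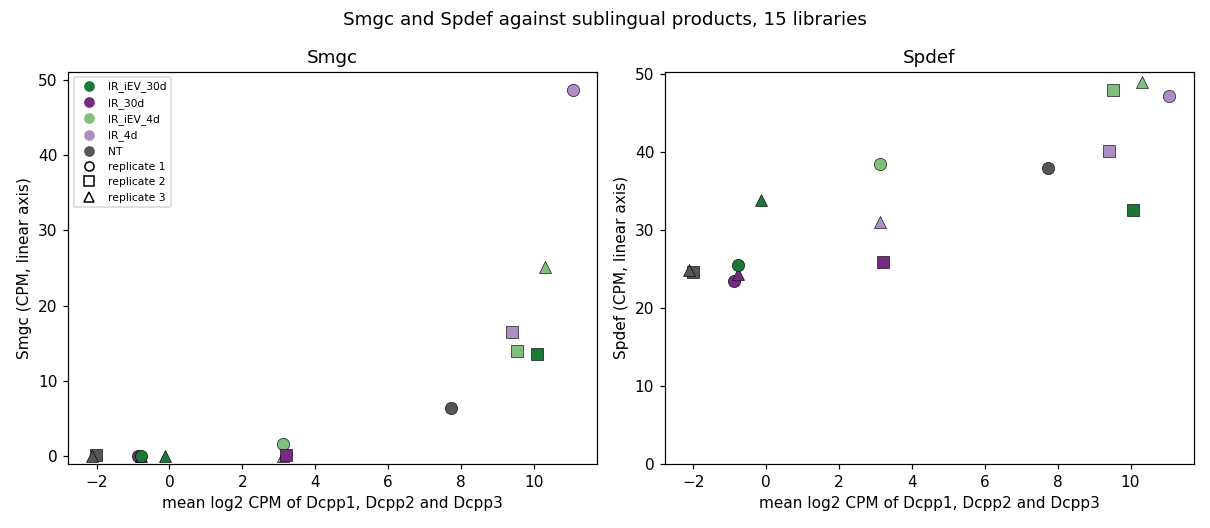
Spdef and Smgc level in each library (CPM) against the mean log2 CPM of the sublingual products Dcpp1 to Dcpp3, coloured by group. The 6 libraries above 7.73 have 32.5 to 49.0 CPM of Spdef and 6.47 to 48.6 CPM of Smgc, and the 9 others 23.5 to 38.4 CPM and 0 to 1.60 CPM.

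Bhlha15 stood at 286, 366 and 353 CPM in IR_30d glands, against 467, 463 and 418 CPM in IR_4d glands, without overlap. The change was -0.43 ± 0.16 (95% interval -0.76 to -0.09, edgeR adjusted p 0.139), and a separate fit of these 2 groups gave an adjusted p of 0.00670. The other alternatives gave 0.0702 to 0.393, the highest without the 6 sublingual-high libraries, where IR_4d keeps 1 library. Pip had 5719, 5226 and 5768 CPM in IR_30d glands, against 7351, 8826 and 9622 CPM in IR_4d glands, and again the groups were apart. The change was -0.63 ± 0.21 (95% interval -1.08 to -0.17, edgeR adjusted p 0.103), with DESeq2 at 0.0179, a separate fit at 0.000551 and -0.80 (0.0179) without the 6 sublingual-high libraries, where IR_4d keeps 1 library. The adjusted p was 0.191 with the covariates, 0.0849 in limma-voom, 0.0646 under the replicate block and 0.114 to 0.258 with 1 library left out. In this comparison 15.1% of all genes had the first group wholly lower. Prol1, Car6 and Lpo had estimates of -0.07, -0.03 and -0.12, with intervals between -0.42 and 0.29. Lpo too was wholly lower in IR_30d glands, at 673, 712 and 693 CPM against 727, 739 and 788 CPM in IR_4d glands.

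With iEVs the same 3 genes had the largest estimates between the days, apart from Smgc, and none was called by edgeR in IR_iEV_30d against IR_iEV_4d glands. Spdef had -0.56 ± 0.18 (edgeR adjusted p 0.0673, DESeq2 0.0210, and 0.337 without the 6 sublingual-high libraries), Pip -0.46 ± 0.21 (edgeR adjusted p 0.198) and Bhlha15 -0.42 ± 0.16 (edgeR adjusted p 0.117). Spdef and Bhlha15 did not overlap between the days, as for 12.4% of all genes with the first lower. Of all genes 8.27% were called, and 24.2% had an unadjusted p under 0.05, as did 3 of the 7.

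Among the regulated lists, 3 of 5 MIST1-regulated genes fell in IR_30d against IR_4d glands: Rab3d by 0.36, Gjb1 by 0.57 and Copz2, a coatomer subunit of vesicle transport, by 0.52 (edgeR adjusted p 0.0249, 0.0106 and 0.0232). Of all genes 1.99% fell in this comparison. Rab3d stood at 125, 132 and 131 CPM in IR_30d glands, against 163, 171 and 164 CPM in IR_4d glands. The call of Rab3d was lost without any 1 of the 6 libraries (adjusted p up to 0.117), that of Gjb1 without IR_4d replicate 2 (0.0628) or IR_30d replicate 1 (0.0598), and that of Copz2 without IR_4d replicate 2 (0.125) or 3 or IR_30d replicate 1 or 2. Without the 6 sublingual-high libraries Rab3d and Copz2 had adjusted p of 0.182 and 0.106. Of 5 SPDEF-regulated genes tested, 2 fell, Agr2, a disulfide isomerase of mucous cells, by 1.24 ± 0.25 (edgeR adjusted p 0.00481) and Creb3l1 by 0.57 (0.00896). Agr2 was low in both groups, at a mean of 2.05 CPM in IR_30d and 4.85 CPM in IR_4d glands. Without the 6 libraries Agr2 had -1.16 with an adjusted p of 0.165, and Creb3l1 -0.35 with 0.238. The Creb3l1 call was also lost without IR_4d replicate 2 (0.0520) or IR_30d replicate 3 (0.0593). Of 17 secreted products, Azgp1 fell by 2.05 (edgeR adjusted p 0.0341), from a mean of 5.27 CPM in IR_4d to 1.28 CPM in IR_30d glands. Its call was lost without any single library other than IR_4d replicate 3, and its change was -0.57 without the 6 libraries. Lyz1 rose by 2.92 (edgeR adjusted p 0.000107), from a mean of 0.525 CPM in IR_4d to 4.04 CPM in IR_30d glands, as 4.81% of all genes rose. Of 10 exocytosis genes, the SNARE protein gene Vamp8 rose by 0.45 (0.00777, but 0.0553 without IR_30d replicate 3, 0.126 without the 6 libraries and 0.120 with the covariates) and Rab3d, also in that list, fell. With iEVs Vamp8 rose by 0.33 (edgeR adjusted p 0.0421, and up to 0.120 when IR_iEV_4d replicate 2 or 3 or IR_iEV_30d replicate 1 or 3 was left out, and 0.428 without the 6 libraries) and the ETS factor Elf3 rose by 0.51 (0.00977, but 0.0866 without the 6 libraries, 0.0545 in a separate fit and 0.180 with the covariates) in IR_iEV_30d against IR_iEV_4d glands, as 4.32% of all genes rose.

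Smgc counts lay mostly in the sublingual-high libraries. Its counts were 0, 426 and 0 in IR_iEV_30d, 0, 5 and 3 in IR_30d, 49, 619 and 1034 in IR_iEV_4d, 1644, 546 and 0 in IR_4d and 226, 6 and 2 in NT libraries. The 6 libraries high in Dcpp products held 226 to 1644 counts and the 9 others 0 to 49. Smgc shares its locus with the sublingual mucin gene Muc19, which RefSeq lists among its synonyms, so how reads were divided between the 2 rows is uncertain. No comparison of Smgc was called by edgeR (adjusted p 0.183 to 0.960 over the 8 pairs of groups), and fitted folds are not given because several libraries are at 0. DESeq2 called it in IR_30d against IR_4d glands (adjusted p 0.0331).

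Genes whose pattern over the 15 libraries lay nearest to each member were ranked by the root mean square (RMS) difference of centred log2 CPM. Pip had the closest neighbours, Scgb1b27 and Scgb2b27, which encode salivary androgen-binding protein subunits, at 0.07 and 0.08, and Smco4 at 0.14, against a median of 0.42 over all genes. Scgb1b27 had 23287, 20243 and 26585 CPM in IR_iEV_30d, 18072, 17640.1 and 19841 CPM in IR_30d, 37796, 25098 and 26467 CPM in IR_iEV_4d, 22083, 27275 and 31948 CPM in IR_4d and 34455, 18488 and 22153 CPM in NT libraries. IR_iEV_4d replicate 1 was the highest library for both Scgb1b27 and Pip, followed by NT replicate 1.

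**Figure D4:**
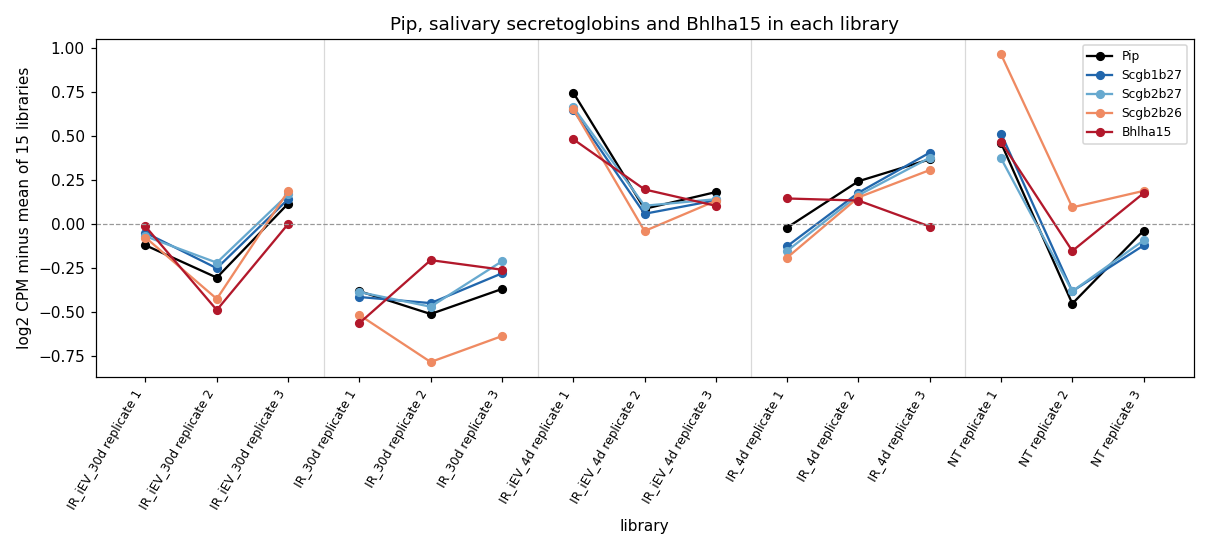
Centred log2 CPM of Pip, Scgb1b27, Scgb2b27, Scgb2b26 and Bhlha15 in each of the 15 libraries. Smco4, the third nearest gene to Pip, is not drawn. Scgb1b27 and Scgb2b27 trace Pip within an RMS difference of 0.07 and 0.08.

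Bhlha15 lay nearest to Bckdhb (RMS difference 0.12), Plvap (0.12) and Oat (0.14), Spdef to Sh3bgrl2 (0.16), Snhg18 (0.17) and Tspan3 (0.17), and Smgc to Nkx2-3 (1.33), B3gnt6 (1.5) and Dcpp1 (1.57). Within an RMS difference of 0.2 lay 82 genes for Bhlha15, 12 for Spdef, 21 for Pip and 0 for Smgc, but 568 for Car6, 1773 for Prol1 and 2397 for Lpo, whose own spread is small. Among the members themselves, Lpo and Car6 were 0.13 apart, Prol1 and Car6 0.15 and Bhlha15 and Pip 0.20. Nearness describes these 15 libraries, which differ in total counts and in neighbouring-gland markers.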

How the data were processed

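The deposited file holds raw counts for each gene symbol in 15 libraries (5 groups of 3), and the submitters' processing notes name TopHat, HTSeq, DESeq2 and GRCm39. Versions, annotation, strand setting and the treatment of multi-mapped reads are not given in the sources used here. The labels' protocols name TRIzol and a NEXTFLEX Rapid Directional kit.

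Counts were tested with edgeR 4.0.16 (R 4.3.3): TMM scaling, filterByExpr (minimum count 10, total 15), and a robust quasi-likelihood test in 1 model of 15 libraries (10 residual degrees of freedom). Of 21013 genes 16042 passed, and p-values were adjusted over them (Benjamini-Hochberg, threshold 0.05). SE is the log2 change divided by the root of F, and levels are CPM of effective library sizes. The scripts were tested on simulated data. Alternatives used DESeq2 1.42.0, limma 3.58.1 voom, other scalings and filters, separate fits, a replicate block, left-out libraries and neighbouring-tissue levels as covariates. Genes named were the 7 members, called members of the lists (at most 4 per list and comparison), and the 3 nearest genes. Aqp5, Xbp1 and the uncalled values of Rab3d and Gjb1 were added after values were seen. Members and lists were chosen with earlier results of these data known. With 3 libraries per group, replicate spread limits precision more than counting does. No 2 replicates agreed within sampling noise. A further marker of the granular convoluted tubule list is not reported here.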

Additional observations from a re-analysis of the deposited data

Results flagged for a closer look

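In 12 cases a tested difference stood between the days within 1 treatment, which equals the difference between the changes from NT on the 2 days. In IR_30d against IR_4d glands these were log2 changes of -0.68 for Spdef, -0.57 for Creb3l1, -0.57 for Gjb1, -0.69 for Aqp5, -0.36 for Rab3d, -0.52 for Copz2, -1.24 for Agr2, -2.05 for Azgp1, 2.92 for Lyz1 and 0.45 for Vamp8. In IR_iEV_30d against IR_iEV_4d glands they were 0.33 for Vamp8 and 0.51 for Elf3. Agr2, Azgp1 and Lyz1 have the low levels given above. All 12 cases are past an edgeR adjusted p of 0.05. Except for Spdef, they are genes of the lists read beside the members and not of the 7 followed here.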

How the results depend on the processing

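With 3 libraries per group, SEs of log2 changes in IR_30d against NT were 0.14 to 0.21 for the 6 genes other than Smgc. Of the comparisons of single members outside left-out-library fits, 580 values kept direction and side of the threshold, 10 passed it newly, 4 lost it and 25 turned direction.

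The one member call, Spdef in IR_30d against IR_4d glands, was lost with no low-count filter (-0.68), under the replicate block (-0.68, adjusted p 0.0630), with covariates (-0.36) and without the sublingual-high libraries (-0.34), and ranged from -0.83 to -0.53 with 1 library left out. The cause was not tested, except that fewer samples or more genes enter some of these fits. Replicate numbers did not pair libraries: 5 of 30 same-number pairs had a correlation over 0.1 (-0.29 to 0.19).

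Counts of genes called in IR_30d against IR_4d were 1092, and 2280 in separate fits, 575 with covariates and 374 without the sublingual-high libraries (536 to 718 with 1 library left out). IR_30d against NT had 718, and 1128 in DESeq2 (355 to 606). IR_4d against NT had 224, then 480 in DESeq2, 79 with covariates and 129 without those libraries (119 to 386). IR_iEV_30d against IR_30d had 128, then 408 in DESeq2, 83 under the block, 70 separately, 38 with covariates and 317 without those libraries (9 to 192). IR_iEV_30d against IR_iEV_4d had 1327, then 506 separately, 50 with covariates and 267 without those libraries (710 to 1006). IR_iEV_30d against NT had 177, then 422 in DESeq2, 58 separately and 104 without those libraries (113 to 182). IR_iEV_4d against NT had 371, then 865 in DESeq2, 106 separately and 67 with covariates (135 to 792). IR_iEV_4d against IR_4d had 5, then 32 in DESeq2, 0 in voom (1100 unadjusted), 2 at a mean of 5 CPM, 3 under the block and separately, and 0 with covariates (847 unadjusted; 0 to 7). The difference of iEV changes had 20, then 119 in DESeq2, 7 with covariates and 7 without those libraries (9 to 29).

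Direction turned, for values never called, as follows. In voom Car6 had -0.0083 and Smgc -0.83 in the difference of iEV changes, and Smgc -1.48 in IR_iEV_30d against NT and 1.63 in IR_iEV_4d against IR_4d. Under the block Bhlha15 had -0.0079 and Prol1 0.0021 in the difference of iEV changes, and Smgc 1.14 in IR_iEV_4d against IR_4d. With covariates the difference of iEV changes was -0.085 for Bhlha15, -0.024 for Car6 and -0.10 for Spdef, IR_iEV_4d against NT 0.032 for Car6 and 0.13 for Prol1, and Smgc -0.81 in IR_iEV_30d against NT and 0.37 in IR_iEV_4d against IR_4d. Upper quartile scaling gave Car6 0.0059 in IR_iEV_30d against IR_iEV_4d. Without the sublingual-high libraries, IR_iEV_30d against NT was 0.15 for Car6, 0.23 for Lpo, 0.23 for Pip and 0.0601 for Prol1, IR_iEV_4d against NT 0.21 for Car6 and 0.38 for Prol1, IR_4d against NT 0.043 for Lpo and 0.11 for Prol1, Lpo 0.073 in IR_iEV_30d against IR_iEV_4d, and Bhlha15 -0.13 in the difference of iEV changes.

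With 1 library left out, turned values ranged in IR_4d against NT from -0.24 to 0.0698 for Bhlha15, -0.027 to 0.44 for Pip and -0.23 to 0.0068 for Prol1. In IR_iEV_4d against NT they were -0.059 to 0.25 for Bhlha15, -0.032 to 0.16 for Lpo, -0.24 to 0.10 for Prol1 and -0.25 to 0.025 for Car6. In IR_iEV_30d against NT they were -0.023 to 0.31 for Spdef, -0.32 to 0.14 for Pip, -0.21 to 0.14 for Lpo, -0.21 to 0.0098 for Prol1 and -0.30 to 0.017 for Car6. In IR_iEV_4d against IR_4d they were -0.071 to 0.28 for Pip, -1.46 to 0.72 for Smgc and -0.10 to 0.23 for Prol1, and in IR_30d against IR_4d -0.10 to 0.0597 for Car6. In IR_iEV_30d against IR_iEV_4d they were -0.26 to 0.085 for Lpo, -0.22 to 0.10 for Prol1 and -0.17 to 0.14 for Car6. The difference of iEV changes ranged from -0.10 to 0.15 for Bhlha15, -0.023 to 0.27 for Spdef, -0.15 to 0.20 for Lpo, -0.16 to 0.17 for Prol1 and -0.15 to 0.17 for Car6. Smgc has no value where a group keeps 3 counts or fewer.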

Other observations

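In counts per Prol1 count, Car6 was 0.405, 0.374 and 0.537 in IR_iEV_30d, 0.381, 0.389 and 0.406 in IR_30d, 0.392, 0.502 and 0.385 in IR_iEV_4d, 0.380, 0.368 and 0.396 in IR_4d, and 0.447, 0.444 and 0.435 in NT libraries. The 6 libraries of IR_30d and IR_4d lay under the 3 NT libraries, while 1 library of each iEV group lay above them. Per Prol1 count, Pip was 0.105, 0.0943 and 0.110 in IR_30d libraries and 0.144, 0.153 and 0.156 in IR_4d libraries. No test was run on these ratios.

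The 6 libraries high in sublingual products held 3.64 to 6.56 Smgc counts per 100 Muc19 counts. IR_iEV_4d replicate 1, which is not among them, held 49 Smgc counts beside 16 Muc19 counts.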
